A study of Rattus norvegicus with 24 samples.

Results

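The thalamus and habenula marker genes described here are 9 genes, picked by symbol and each known from the thalamus or the habenula, of 23950 genes listed in each library. They are the transcription factor genes Tcf7l2, Gbx2, Lef1 and Lhx9, the signalling and transport genes Prkcd, Slc17a6, Ptger3 and Slc6a4, and the nicotinic receptor gene Chrnb4. The thalamus is the relay station of the forebrain, and its projection neurons release glutamate loaded into vesicles by the transporter that Slc17a6 encodes. The habenula is a small neighbour of the thalamus that sends signals about aversive outcomes to the midbrain, and its medial neurons are rich in nicotinic acetylcholine receptors. The nucleus accumbens (NAc) belongs to the ventral striatum, whose own neurons are mostly inhibitory, and it receives glutamate axons from the thalamus, whose cell bodies lie outside it.

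RNA was measured in the NAc, cut out with a brain matrix, of 24 Sprague Dawley rat pups at postnatal day 14, with 4 pups from separate litters in each of 6 groups. F1 IUO pups came from F0 dams gavaged with oxycodone at 10 mg/kg/day for 5 days, raised by 0.5 mg/kg/day for 10 days to 15 mg/kg/day, and then dosed through mating, gestation and nursing until weaning. F1 PNO pups came from dams given oxycodone at 15 mg/kg/day only after birth of the litter and until weaning, and F1 SAL pups from dams given saline. The F2 IUO, F2 PNO and F2 SAL pups were born to F1 females of those lines mated with naive males, and no F1 animal was itself dosed. The sex of each pup is not in the labels.

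Levels are the deposited FPKM, which scale fragments for gene length and library and so allow levels of different genes to be set side by side. Values were rounded to 0.01, and the libraries summed to between 535866 and 766781 FPKM with 4782 to 7532 genes listed at 0. The files hold no read counts, so the depth is unknown and values carry no counting interval. The labelled tissue was checked with 12 striatum genes, whose summed level ran from 451 FPKM in F2 IUO replicate 1 to 1442 FPKM in F1 SAL replicate 3. The most abundant of them, Ppp1r1b, the phosphoprotein DARPP-32 of striatal projection neurons, lay between 167 and 549 FPKM in the 24 libraries.

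All 9 marker genes were found in the libraries, and several held their place in the order of levels. Tcf7l2 had the highest FPKM of the 9 in 22 libraries and Prkcd in the other 2, Slc17a6 came 2nd in 18, and Slc6a4 was last in 21. Lef1 held place 4 or 5, while Gbx2 ranged from 4 to 8, Ptger3 and Chrnb4 from 5 to 8 and Lhx9 from 5 to 9. The median over 24 libraries was 37.8 FPKM for Tcf7l2, 24.2 for Slc17a6 and 17.0 for Prkcd. It was 6.22 FPKM for Lef1, 2.99 for Gbx2, 1.66 for Lhx9, 1.60 for Ptger3, 0.75 for Chrnb4 and 0.12 for Slc6a4. Slc6a4 was listed at 0 in 5 libraries and Lhx9 in 3, while the other members were above 0 in every library.

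Pups of the same group differed widely in these genes. Within a group, the highest pup exceeded the lowest by 2.68-fold (F1 PNO) to 15.3-fold (F2 SAL) for Tcf7l2. The same ratio reached 14.6 for Slc17a6 (F2 SAL), 8.92 for Prkcd (F1 IUO) and 4.59 for Lef1 (F2 PNO). It reached 85.3 for Gbx2 (F2 SAL), 55.3 for Ptger3 (F2 IUO) and 6.39 for Chrnb4 (F2 SAL). Over all 24 libraries it was 26.6 for Tcf7l2, 33.5 for Slc17a6, 11.7 for Prkcd, 6.86 for Lef1, 85.3 for Gbx2, 72.2 for Ptger3 and 17.8 for Chrnb4. Lhx9 and Slc6a4 were listed at 0 in some libraries and have no such ratio over the 24. The within-group SD of Tcf7l2 on the log2 scale was 1.39, larger than that of 97.5% of the 13677 genes with a mean of at least 1 FPKM. It was 2.09 for Lhx9, larger than in 99.2% of those genes, and 0.71 for Chrnb4, larger than in 89.9%. A single library of a group tended to hold the highest values of several markers at once. F1 SAL replicate 1, F2 SAL replicate 3 and F2 PNO replicate 3 were each highest of their group for 9 of 9 members, F1 PNO replicate 2 and F2 IUO replicate 1 for 8, and F1 IUO replicate 4 for 7. At the other end, F2 IUO replicate 4 was lowest of its group for 8 members and F2 PNO replicate 4 for 7. In tissue RNA, fewer cells of a type and less RNA per cell cannot be told apart.

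**Figure D1:**
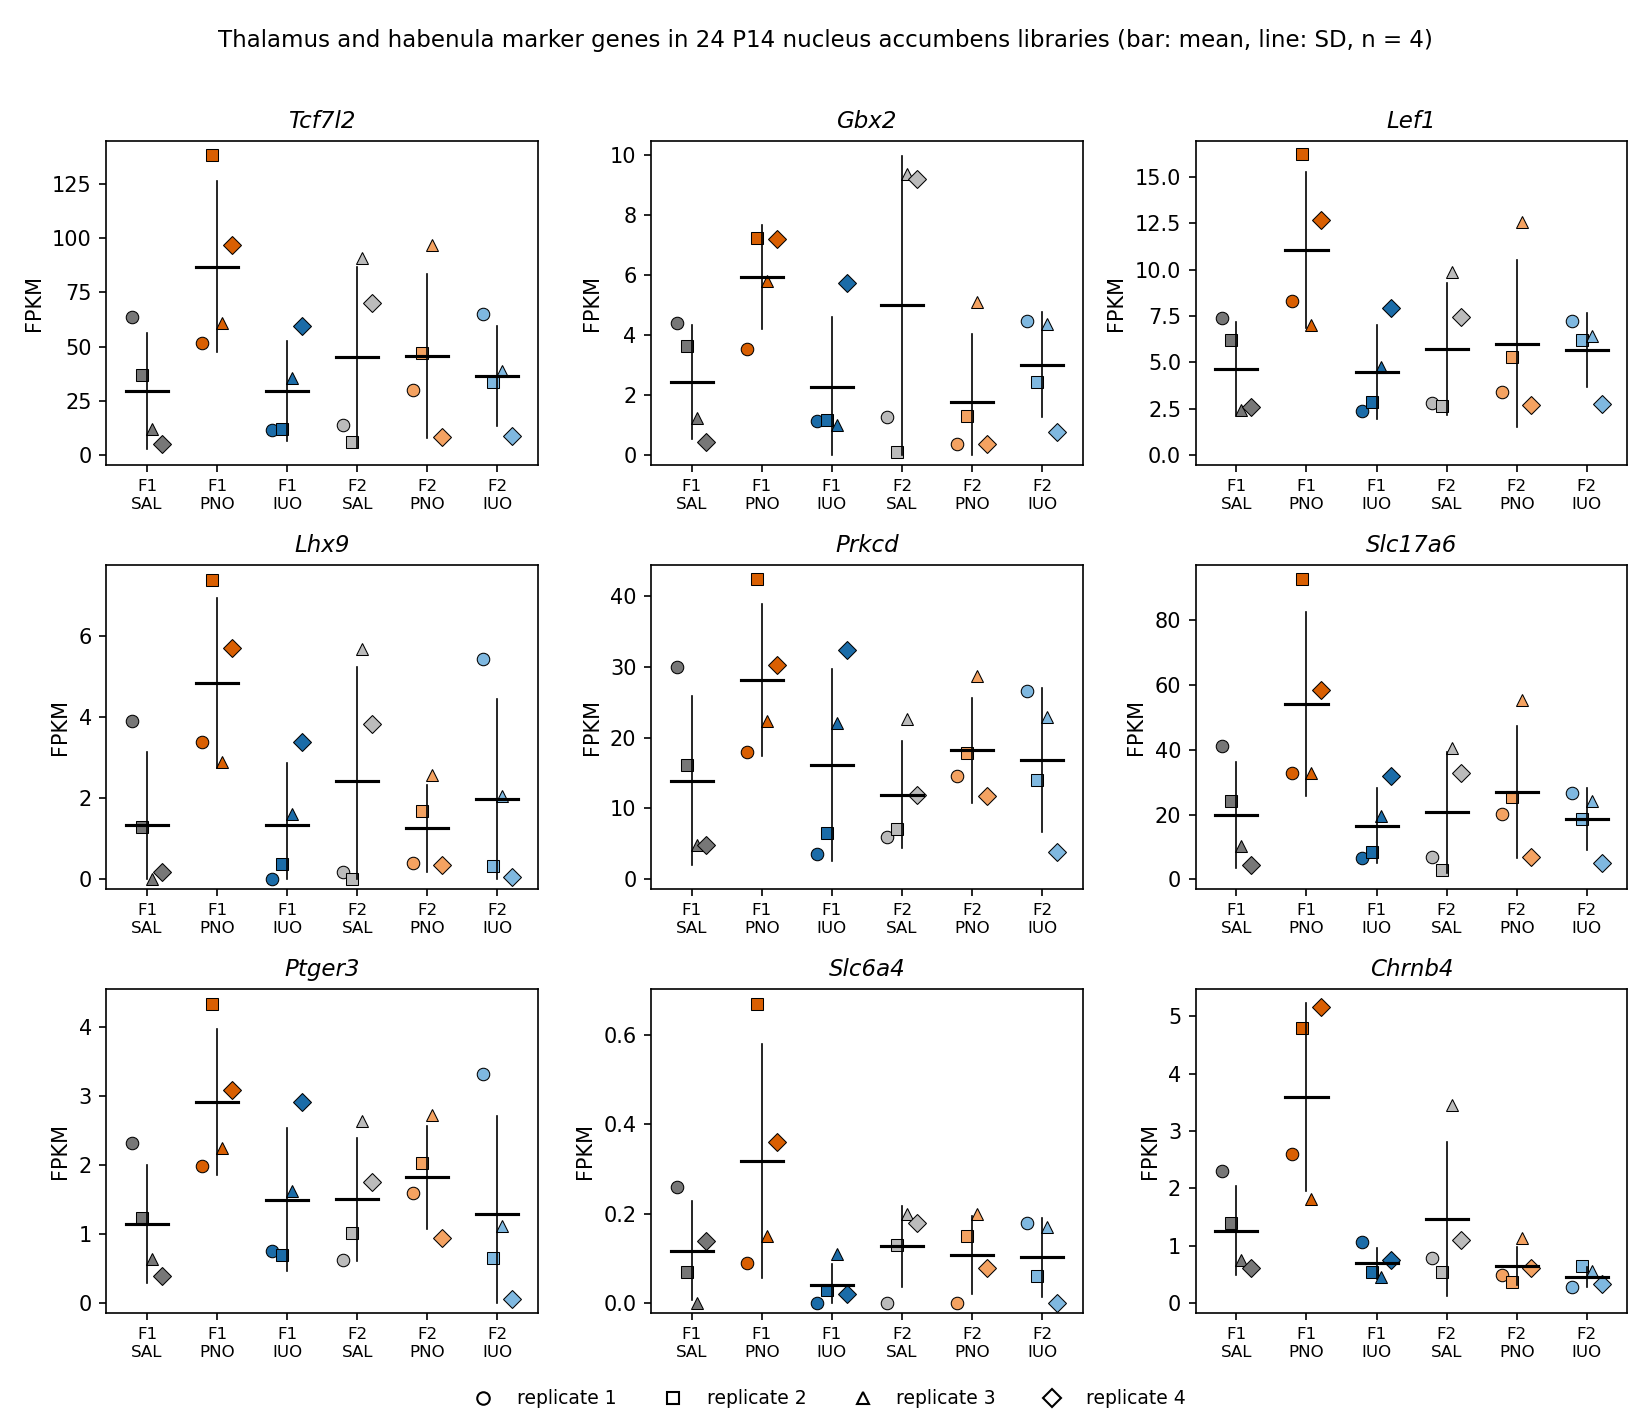
FPKM of the 9 marker genes in each library, by group, with 1 symbol shape per replicate number, the mean as a bar and the SD as a line (n = 4 pups). The F1 PNO group has the highest mean in all 9 panels, and Tcf7l2 there spans 51.6 to 138 FPKM.

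The first question was how each marker stood in the 6 groups, starting with the transcription factors. Tcf7l2, the Wnt pathway factor that is active in thalamus and habenula neurons after birth, had 51.6, 138, 60.8 and 96.7 FPKM in the 4 F1 PNO pups (86.8 ± 39.4, mean and SD, n = 4). The F1 SAL pups had 63.8, 37.0, 12.3 and 5.20 FPKM of Tcf7l2 (29.6 ± 26.6), and the F1 IUO pups 11.5, 12.1, 35.7 and 59.8 (29.8 ± 22.9). These groups overlapped with F1 PNO through 1 high library each, F1 SAL replicate 1 and F1 IUO replicate 4. In F2, Tcf7l2 had 13.8, 5.91, 90.7 and 70.3 FPKM in SAL, 29.9, 47.1, 97 and 8.54 in PNO, and 65.0, 33.7, 38.7 and 8.86 in IUO. All 3 F2 groups held both low and high pups, and their ranges overlapped. By mean, the order of Tcf7l2 was F1 PNO, F2 PNO (45.7 FPKM), F2 SAL (45.2), F2 IUO (36.6), F1 IUO and F1 SAL, and every pair of neighbours in that order overlapped.

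Gbx2, a homeobox gene needed for thalamus development, had 3.53, 7.22, 5.81 and 7.21 FPKM in F1 PNO. It had 4.42, 3.65, 1.23 and 0.46 FPKM in F1 SAL and 1.14, 1.19, 1 and 5.75 in F1 IUO, so that 2 F1 SAL pups and 3 F1 IUO pups lay under the lowest F1 PNO pup. F2 SAL pups split widely in Gbx2, with 1.29, 0.11, 9.38 and 9.19 FPKM, against 0.39, 1.30, 5.09 and 0.38 in F2 PNO and 4.48, 2.45, 4.36 and 0.78 in F2 IUO. Lef1, which encodes another factor of the TCF/LEF family, had group means from 4.47 FPKM (SD 2.52) in F1 IUO to 11.04 (SD 4.20) in F1 PNO. Lhx9, a LIM homeobox gene of developing thalamus neurons, had 3.38, 7.40, 2.89 and 5.72 FPKM in F1 PNO, and 0.41, 1.70, 2.58 and 0.36 in F2 PNO. Those PNO groups of Lhx9 did not overlap, whereas F1 SAL (0 to 3.90 FPKM), F1 IUO (0 to 3.38), F2 SAL (0 to 5.70) and F2 IUO (0.06 to 5.45) each reached into the F1 PNO range.

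Slc17a6, the vesicular glutamate transporter VGLUT2, had 32.7, 92.5, 32.8 and 58.4 FPKM in F1 PNO (54.1 ± 28.3, n = 4). F1 IUO pups had 6.56, 8.44, 19.7 and 31.8 FPKM of Slc17a6 (16.6 ± 11.6), and F1 SAL pups 41.0, 24.2, 10.2 and 4.42 (19.96 ± 16.3). Every F1 IUO pup lay under every F1 PNO pup, while F1 SAL replicate 1 lay within the F1 PNO range. Slc17a6 in F2 had 6.85, 2.76, 40.4 and 32.8 FPKM in SAL, 20.1, 25.4, 55.2 and 6.97 in PNO, and 26.5, 18.5, 24.1 and 5.12 in IUO, all overlapping. Prkcd, a protein kinase C isoform abundant in thalamus relay neurons, had its highest group mean in F1 PNO (28.2 ± 10.7 FPKM, n = 4) and its lowest in F2 SAL (11.9 ± 7.57). Ptger3, a receptor for prostaglandin E, had its highest group mean in F1 PNO as well (2.91 ± 1.06 FPKM) and its lowest in F1 SAL (1.15 ± 0.856). Neither Prkcd nor Ptger3 separated any pair of the groups compared.

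Slc6a4, the serotonin transporter, which thalamus relay neurons of young rodents take on for a time without making serotonin, was near the lower end of the scale everywhere. It had 0.09, 0.67, 0.15 and 0.36 FPKM in the F1 PNO pups, 0.26, 0.07, 0 and 0.14 in F1 SAL pups, and 0, 0.03, 0.11 and 0.02 in F1 IUO. The highest F1 PNO pup for Slc6a4 was also the highest for Tcf7l2, Gbx2, Lef1, Lhx9, Prkcd, Slc17a6 and Ptger3. The F2 group means of Slc6a4 ran from 0.102 to 0.128 FPKM, with 1 pup listed at 0 in each F2 group.

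Chrnb4, the beta4 subunit of nicotinic receptors in the medial habenula, had 2.60, 4.79, 1.82 and 5.15 FPKM in F1 PNO (3.59 ± 1.63, n = 4). F1 SAL pups had 2.31, 1.39, 0.75 and 0.61 FPKM of Chrnb4 (1.27 ± 0.775), and F1 IUO pups 1.06, 0.54, 0.45 and 0.75 (0.70 ± 0.271). All F1 IUO pups were under all F1 PNO pups, and 1 F1 SAL pup, replicate 1, lay above the lowest F1 PNO pup. Chrnb4 had 0.79, 0.54, 3.45 and 1.10 FPKM in F2 SAL, 0.49, 0.38, 1.13 and 0.61 in F2 PNO, and 0.29, 0.65, 0.56 and 0.33 in F2 IUO. F2 PNO pups thus lay wholly under F1 PNO pups, and 1 F2 SAL pup, replicate 3, stood above the rest of F2. By mean, Chrnb4 ran from F1 PNO through F2 SAL (1.47 FPKM), F1 SAL, F1 IUO and F2 PNO (0.653) to F2 IUO (0.458), and all neighbours in that order overlapped.

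Over the 6 groups together, limma's F test gave its lowest adjusted p among the members to Chrnb4 (F 7.40, adjusted p = 0.0947). The other 8 members had adjusted p values from 0.423 to 0.603. No member was under 0.05 (0 of 9, limma, 1 unadjusted), where 0.141% of 19134 genes were. With Tcf7l2 as a covariate, a setting chosen after seeing the data, 0 of the other 8 were under 0.05 (limma, 3 unadjusted), where 0.0575% of genes were. Chrnb4 and Slc17a6 then both had an adjusted p of 0.110, and Gbx2 one of 0.295.

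For exposure after birth, F1 PNO was compared with F1 SAL by limma on log2(FPKM + 0.1). The rule asked for an unadjusted p under 0.05 and for mean FPKM that differed 2-fold or more. All 9 markers had higher means in F1 PNO, and 8 of them, all but Slc6a4, passed the rule in that direction, where 0.84% of 17494 genes did. The median log2 difference of the members was 1.49, beside -0.05 over all genes tested. The study's own term lists for these groups name Prkcd, Slc17a6, Ptger3, Chrnb4, Gbx2 and Lef1, and the study took Tcf7l2 to RT-PCR in F1 and counted it as significant, so the direction here is not independent evidence. Lhx9 had the largest log2 difference, 2.89 (SE 0.997), followed by Tcf7l2 with 2.02 (SE 0.697). The ratio of mean FPKM was 2.93 for Tcf7l2, 2.84 for Chrnb4 and 2.71 for Slc17a6. None of the 9 had an adjusted p under 0.05 (limma, 0 of 9, with 8 under 0.05 unadjusted), where 0.0% of all genes had and 2438 genes were under 0.05 unadjusted. Their adjusted p values lay between 0.245 and 0.506, and two-sided exact permutation p values between 0.0571 and 0.171. No member separated the groups fully (0 of 9), where 8.27% of genes did. The count of 8 was 4 without F1 PNO replicate 2, 5 without F1 SAL replicate 3, and 6 when all 24 libraries entered one fit or with Y-linked genes as a covariate. With Tcf7l2 itself as a covariate, 0 of the other 8 members passed the rule, where 0.697% of genes did, and 0 were under 0.05 unadjusted. Their median log2 difference was then 0.18.

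Exposure from before birth was compared with saline in F1 IUO against F1 SAL. Of 8 members tested, 0 passed the rule, where 1.61% of 17380 genes did, and limma gave 0 members an unadjusted p under 0.05. The adjusted rule was met by 0.0% of all genes, with 679 under 0.05 unadjusted. The members' median log2 difference was 0.05, with 4 higher and 4 lower, beside 0.01 over all genes. Its sign was not stable: it ran from -0.44 to 0.53 with a library left out and was -0.97 with Y-linked genes as a covariate. Slc6a4 reached 0.1 FPKM in only 3 of the 8 libraries, under the 4 required, and was not tested.

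The timing of exposure was compared in F1 IUO against F1 PNO, which shares its F1 PNO pups with the comparison with saline. All 9 markers had lower means in F1 IUO, and 7 passed the rule (all but Prkcd and Ptger3), where 1.5% of 17306 genes were lower by that rule. The median log2 difference was -1.70 over the members and 0.03 over all genes. Chrnb4 and Slc17a6 (2 of 9) did not overlap between the groups, as 10.5% of genes did not, each with a two-sided exact permutation p of 0.0286, the smallest that 4 against 4 pups allow. Chrnb4 was 5.13-fold higher in F1 PNO, with a log2 difference of -2.15 (SE 0.381) and an adjusted p of 0.0782. For Slc17a6, the ratio of means was 3.26, the log2 difference -1.84 (SE 0.514) and the adjusted p 0.150. After adjustment, 0 of 9 members were under 0.05 (limma, 8 unadjusted), where 0.133% of genes were and 2857 genes were under 0.05 unadjusted. Slc6a4, one of the 7, met the filter of 0.1 FPKM in exactly 4 of the 8 libraries, with 0.67, 0.15 and 0.36 FPKM in 3 F1 PNO pups and 0.11 in 1 F1 IUO pup. Without any one of these it was not tested, and with a pseudocount of 1 its log2 difference went from -1.42 to -0.32. With a filter of 1 FPKM, which leaves Slc6a4 out, the count was 6 of 8. The count of 7 was 4 when all 24 libraries entered one fit. With Tcf7l2 as a covariate it was 1 of 8, Chrnb4, where 1.77% of 17305 genes passed. The log2 difference of Chrnb4 was then -1.92 (SE 0.579) with an adjusted p of 0.325, the upper end of a range of 0.0567 to 0.325 over all settings.

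The same exposures were then compared 1 generation later. In F2 PNO against F2 SAL, 0 of 9 members passed the rule, where 2.15% of 17367 genes did, and limma gave 0 members an unadjusted p under 0.05, while 0.00576% of genes were under 0.05 adjusted. The members' median log2 difference was 0.22, beside -0.08 over all genes, and ran from -0.24 to 0.66 with a library left out. With Tcf7l2 as a covariate Gbx2 passed the rule there (1 of 8, where 2.26% of 17366 genes did), at a log2 difference of -1.33 (SE 0.513, adjusted p = 0.411). In F2 PNO pups Gbx2 came to 1.3%, 2.76%, 5.25% and 4.45% of the Tcf7l2 level, and in F2 SAL pups to 9.32%, 1.86%, 10.3% and 13.1%, with 1 F2 SAL pup, replicate 2, inside the F2 PNO range. Without F2 SAL replicate 3, 1 member passed the rule with no covariate.

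F2 IUO against F2 SAL gave 1 of 9 members past the rule, Chrnb4, lower in F2 IUO as were 1.68% of 17097 genes. Its log2 difference was -1.22 (SE 0.534, adjusted p = 0.586, two-sided exact permutation p = 0.0857), and its ranges overlapped. That count was 0 with a pseudocount of 1, with either other filter, and without F2 SAL replicate 3 or 4 or F2 IUO replicate 1, 3 or 4. The adjusted rule was met by 0 members (1 under 0.05 unadjusted) and by 0.0% of all genes, with 1452 unadjusted. Over the members the median log2 difference was 0.13, beside -0.08 over all genes, and it turned sign with a library left out (-0.59 to 0.71). Markers of other cell types were read here too, with no test of a list as a whole. Of these, 4 of 8 cortical excitatory neuron genes (5 unadjusted) and 2 of 3 blood entries, both of Hba-a2, were higher by the rule. The share of all genes higher by the rule is not given here, so these counts have no base rate. Lower values were seen for 11 of 12 striatum genes (0 by the rule, limma, 3 unadjusted). The higher of the 2 entries of Hba-a2, an alpha globin gene, did not overlap between the groups, at a log2 difference of 1.97 (SE 0.389). The share of all genes without overlap is not given here, and the part of these lists in the Chrnb4 difference was not tested. Between F2 IUO and F2 PNO, 0 of 9 members passed, where 1.8% of 17090 genes did, and limma placed 0 members under 0.05 unadjusted. Adjusted, 0.0% of genes passed, with 1208 unadjusted, and the members' median log2 difference was -0.16. This too turned sign, from -0.60 to 0.26 with a library left out and to 0.55 with Y-linked genes as a covariate. The count was 1 without F2 PNO replicate 3 or without F2 IUO replicate 1.

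Generations were compared within each line. In the saline line, 0 of 9 members passed the rule, where 1.45% of 17497 genes did and 0.0343% passed the adjusted rule, and limma gave 0 members an unadjusted p under 0.05. The median log2 difference was 0.22, F2 minus F1, and lay between -0.36 (without F2 SAL replicate 3) and 0.52 (without F1 SAL replicate 1) with a library left out. With Y-linked genes as a covariate it was 3.47, and 1 member passed. Slc17a6 itself overlapped between the saline generations (log2 difference -0.20, SE 0.925, adjusted p = 0.966). Its ratio to Tcf7l2, chosen after seeing the data, was 64.3%, 65.5%, 82.5% and 85.0% in F1 SAL pups and 49.5%, 46.7%, 44.5% and 46.6% in F2 SAL pups. These ratios did not overlap, nor did the ratios to Tcf7l2 of 53 of 17496 genes (0.303%). F2 SAL pups also lay wholly under F1 PNO (53.9% to 67.0%), F1 IUO (53.1% to 69.6%) and F2 PNO pups (53.8% to 81.6%) in this ratio, and inside the range of F2 IUO (40.8% to 62.3%). For these pairs of groups, the share of all genes without overlap is not given, so the separations have no base rate. In the PNO and IUO lines the ratio overlapped between generations. Slc17a6 had a log2 difference of 0.47 (SE 0.132, adjusted p = 0.358) in F2 PNO against F2 SAL with Tcf7l2 as a covariate. Between the saline generations, with Tcf7l2 as a covariate, the log2 difference of Slc17a6 was -0.62 (SE 0.0990), with an adjusted p of 0.184 in a range of 0.184 to 1.0 over all settings. In the IUO line, 0 of 8 members tested passed the rule (limma, 0 unadjusted), where 3.32% of 16916 genes did. There 0.0% passed the adjusted rule, with 2537 genes under 0.05 unadjusted, and the members' median log2 difference was 0.28, or -0.23 to 0.78 with a library left out. Genes of other lists were read in this line as well, with no test of a list as a whole. Lower values in F2 were seen for 11 of 12 striatum genes (limma, 6 unadjusted), with Pde10a past the rule (log2 difference -1.22, SE 0.304, adjusted p = 0.222). All 10 partners and targets of TCF/LEF factors, 8 choroid plexus, 4 endothelium and 4 serotonin neuron genes tested had lower values too (0 by the rule, limma, 0 to 2 unadjusted). Of the cortical excitatory neuron genes, 7 of 8 had higher values (3 unadjusted), with Fezf2 past it (1.05, SE 0.401, adjusted p = 0.273). Their part in the marker values was not tested.

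In the PNO line all 9 markers had lower means in F2 than in F1. Gbx2, Lhx9 and Chrnb4 (3 of 9) passed the rule, where 1.17% of 17370 genes were lower by it. Chrnb4 had a log2 difference of -2.27 (SE 0.419, adjusted p = 0.487), Gbx2 of -2.35 (SE 0.704, adjusted p = 0.878) and Lhx9 of -2.16 (SE 0.603, adjusted p = 0.838). Lhx9 and Chrnb4 (2 of 9) did not overlap between the generations, as 3.34% of genes did not, with a two-sided exact permutation p of 0.0286 each. The median log2 difference was -1.22 over the members, beside -0.06 over all genes. Adjusted, 0 of 9 members were under 0.05 (limma, 4 unadjusted), where 0.0288% of genes were and 827 genes were under 0.05 unadjusted. The count of 3 was 2 when all 24 libraries entered one fit, 4 with Y-linked genes as a covariate, and 6 without F2 PNO replicate 3. Genes of other lists were read here too, with no test of a list as a whole. Higher values in F2 were seen for 9 of 12 striatum genes (0 by the rule, limma, 4 unadjusted) and 8 of 9 hypothalamus genes. So it was for 8 of 8 oligodendrocyte lineage genes (0 by the rule, limma, 0 unadjusted). Pmch, a hypothalamus gene, passed the rule (log2 difference 2.79, SE 0.989), and 7 of 8 cortical excitatory neuron genes had lower values (0 by the rule, limma, 0 unadjusted). Their part in the marker differences was not tested. With Tcf7l2 as a covariate the same 3 genes passed (3 of 8, where 1.77% of 17369 genes did), at log2 differences of -1.19 for Gbx2, -1.14 for Lhx9 and -1.92 for Chrnb4.

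Whether an exposure effect differed between generations was tested as an interaction over 16 libraries. No member had an adjusted p under 0.05 in any of the 3 interactions (limma, 0 of 9 in each), nor did any gene of the whole table, 0.0% in each. For Chrnb4, PNO against SAL differed by -2.31 (SE 0.748, adjusted p = 0.9998) on the log2 scale between F2 and F1, and IUO against PNO by 1.75 (SE 0.577, adjusted p = 0.793). For Gbx2, IUO against PNO differed by 2.89 (SE 1.05, adjusted p = 0.833).

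The markers were next compared with each other across pups, after group means of log2(FPKM + 0.1) were removed, so that only differences between pups of a group counted. All 36 pairs of the 9 genes had a positive Pearson r over 24 libraries, with a median of 0.819 and a range of 0.409 to 0.992. Of the 36, 33 had an adjusted permutation p under 0.05, and 34 by Spearman's rho. The members were chosen with earlier results of these data known, so these p values are not independent evidence that the genes vary together. Tcf7l2 and Slc17a6 were closest, with r = 0.992 and rho = 0.990, each at a permutation p of 1e-05, the smallest that 100000 permutations give (adjusted 3e-05 and 2.57e-05). Without F2 SAL replicate 2 and F2 PNO replicate 4, the pups farthest from the median of Tcf7l2, r was 0.991. Slc17a6 came to between 40.8% and 85.0% of the Tcf7l2 level in the 24 libraries. The 21 pairs without Chrnb4 and Slc6a4 had r from 0.693 to 0.992, and 19 of them were above 0.8.

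Pairs with Chrnb4 or Slc6a4 had lower r than the others, a difference that was not tested. Slc6a4 reached 0.1 FPKM in only 13 of the 24 libraries. The 8 pairs with Chrnb4 had r from 0.409 to 0.665, and the 8 with Slc6a4 from 0.409 to 0.676. Tcf7l2 and Chrnb4 had r = 0.604 (permutation p = 0.0106, adjusted 0.0132) and rho = 0.555 (permutation p = 0.0197, adjusted 0.0229), and r = 0.588 without the same pair of pups. Chrnb4 came to between 0.446% and 11.7% of the Tcf7l2 level. The pairs not under 0.05 by r were Gbx2 with Slc6a4 (r = 0.437), Lhx9 with Chrnb4 (0.48) and Slc6a4 with Chrnb4 (0.409). The widest gap in the ordered Tcf7l2 levels, between 13.8 and 29.9 FPKM, left 8 libraries below and 16 above, so the 8 spanned only 5.20 to 13.8 FPKM of Tcf7l2. Among the 16 above, with group means kept, r ran from 0.397 to 0.943 with 32 pairs under 0.05 adjusted. Among the 8 below, it ran from -0.882 to 0.847 with a median of 0.08 and 0 pairs under 0.05 adjusted, while 5 had an unadjusted permutation p under 0.05. Those were Tcf7l2 with Gbx2 (r = 0.847), Tcf7l2 with Slc17a6 (0.814), Gbx2 with Slc17a6 (0.832), and Slc6a4 with Tcf7l2 (-0.882) and with Gbx2 (-0.852). A split on the level of a member narrows its range, so these values are a description. This split was chosen after seeing the data.

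**Figure D2:**
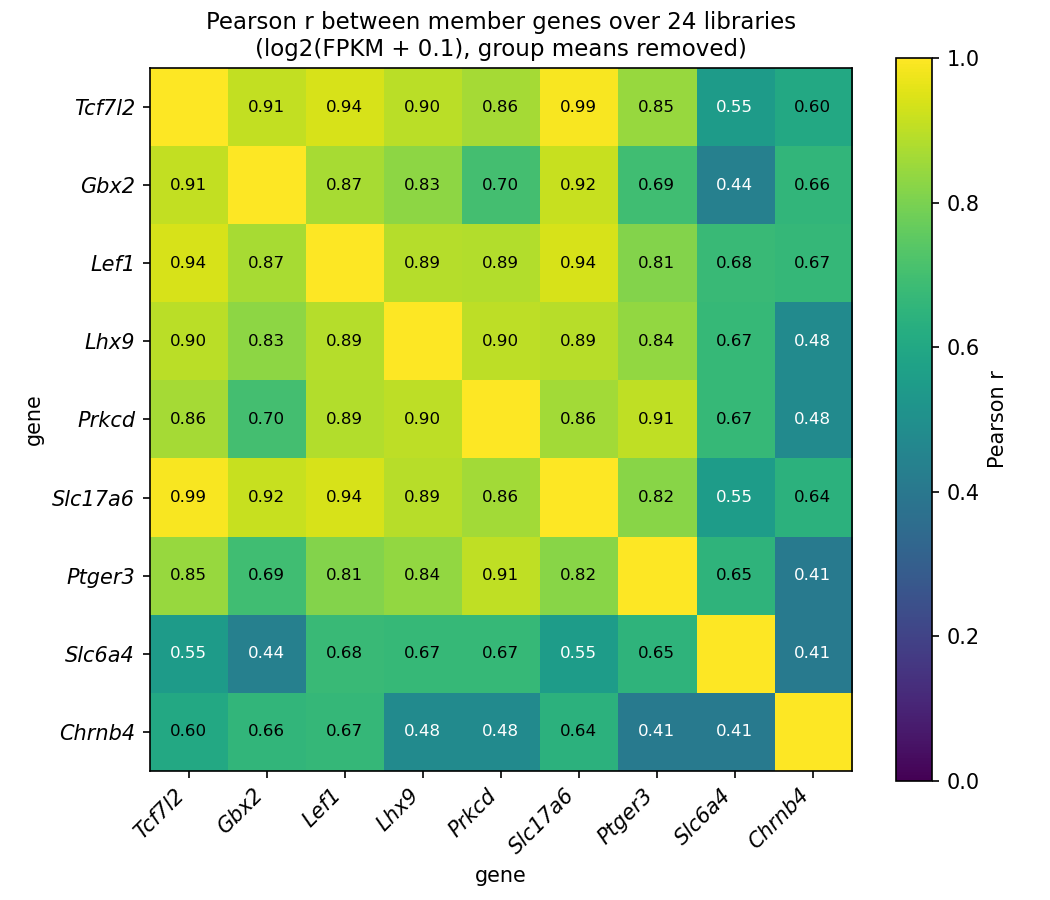
Pearson r between each pair of the 9 marker genes over 24 libraries, on log2(FPKM + 0.1) with group means removed (colour and number, no unit). The Tcf7l2 and Slc17a6 pair has r = 0.992, and the Chrnb4 and Slc6a4 rows hold the lowest values, down to 0.409.

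**Figure D3:**
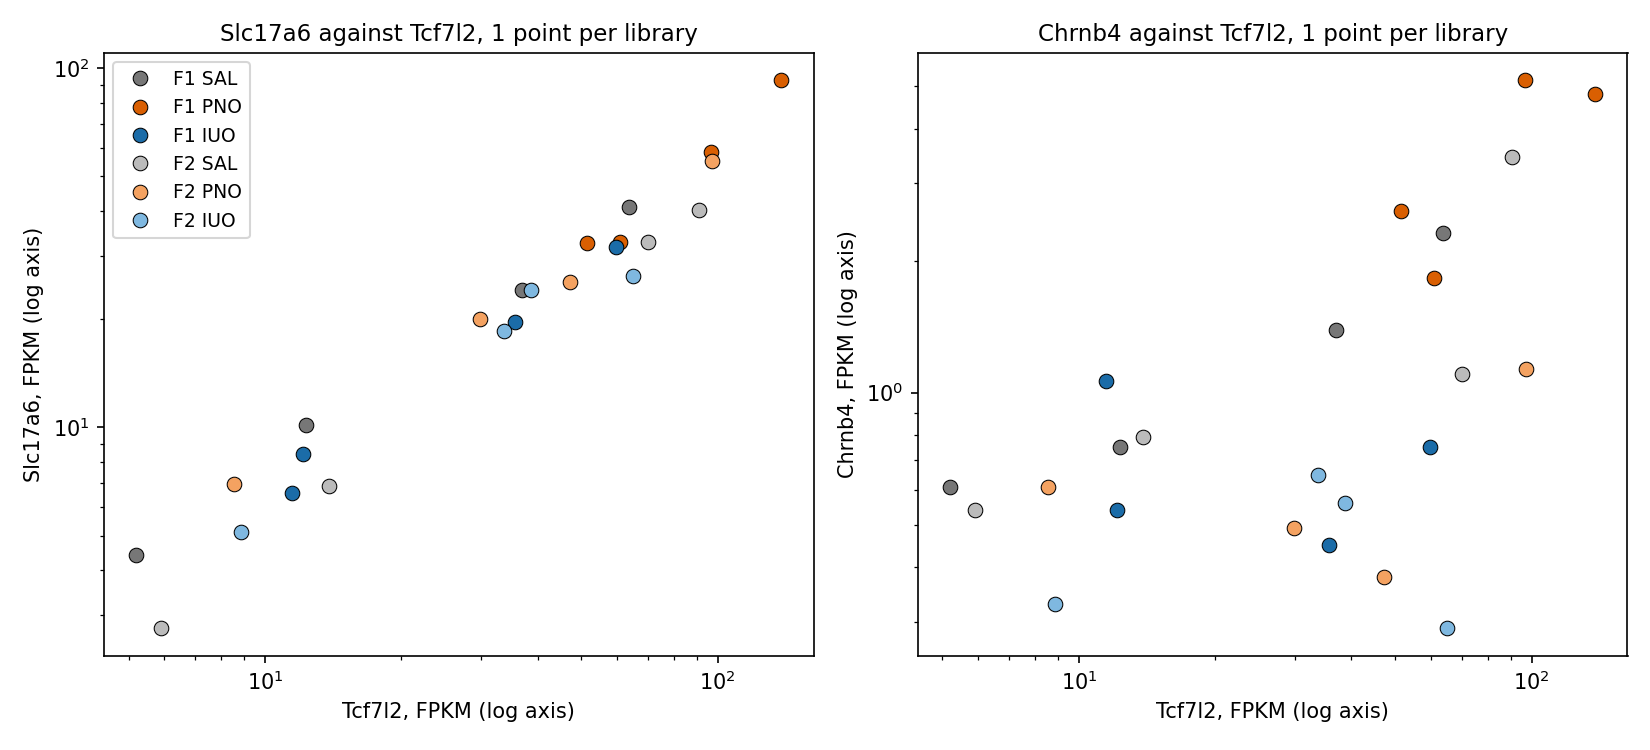
Slc17a6 (left) and Chrnb4 (right) against Tcf7l2, all in FPKM on log axes, with 1 point per library coloured by group. Slc17a6 lies along a narrow band between 40.8% and 85.0% of Tcf7l2, while Chrnb4 scatters between 0.446% and 11.7% of it.

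The genes most like the members were ranked by r over the same 24 libraries, among 17086 genes for a single member and 17078 for the mean of the 9, as a description. Closest to the mean of the 9 members were Ntng1, which encodes the axon guidance protein netrin-G1 (r = 0.974), Hsd11b2 (0.967), Mapk12 (0.957), Rgs16 (0.955) and Pdp1 (0.952). After them came Epha1 (0.949), Synpo2 (0.941), AABR07007000.1 (0.94), Grm2 (0.929) and Ccdc136 (0.929). For Tcf7l2 the nearest genes after Slc17a6 were Ntng1 (0.965) and Rgs16 (0.955), and the same pair followed Tcf7l2 for Slc17a6 (0.972 and 0.951). Gbx2 had Adcy8 (0.904) after Slc17a6 and Tcf7l2, and Lef1 had Ntng1 (0.962), Pdp1 (0.941) and Ccdc136 (0.941). Lhx9 was nearest to Epha1 (0.965), Hsd11b2 (0.948) and Grm2 (0.934), and Prkcd to Shox2 (0.956), Grm2 (0.952) and Grid2ip (0.943). Ptger3 was nearest to Prkcd (0.906), Cpne7 (0.905) and Grik1 (0.903). Slc6a4 was nearest to Acpp (0.841), Cdh12 (0.822) and Fstl3 (0.801), and Chrnb4 to Grm4 (0.794), Slc41a3 (0.758) and Gtf2a1l (0.757).

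Other genes of the same brain regions were read from lists, which were chosen with earlier results of these data known. Of 15 other thalamus genes, 3 were past the rule for F1 PNO over F1 SAL, where 0.84% of all genes were. Higher values were seen for 13 of them, and the list median was a log2 difference of 0.86. Those 3 were Shox2, a homeobox gene (log2 difference 3.44, SE 1.36), Ntng1 (1.52, SE 0.496) and Rgs16, a regulator of G protein signalling (1.39, SE 0.501), at adjusted p values of 0.312, 0.263 and 0.289. In F1 IUO against F1 PNO, 3 of the 15 were lower by the rule, Ntng1 (-1.59, SE 0.466), Rgs16 (-1.37, SE 0.437) and Synpo2 (-1.75, SE 0.648), with a list median of -0.63. In F2 PNO against F1 PNO, 1 was lower, Ntng1 (-1.14, SE 0.424), with a median of -0.60. In the IUO line, 1 of the 15 was lower by the rule in F2 than in F1, Rora, a nuclear receptor gene (-1.41, SE 0.569). In each of the other 5 comparisons 0 of the 15 passed (limma, 0 to 1 unadjusted), and their medians ran from -0.21 to 0.28. None of the 15 had an adjusted p under 0.05 in any comparison (limma, 0 to 6 unadjusted), and for those past the rule it was 0.159 or more. The summed level of the 15 genes lay between 126.6 and 385.6 FPKM, and its most abundant gene, Calb2, which striatal interneurons express too, between 53.1 and 182 FPKM. All 15 reached 1 FPKM in some library. Over the pups, Tcf7l2 tracked the mean log2 level of this list with r = 0.909 and rho = 0.911, each at a permutation p of 3e-05 (adjusted 0.00099 over 33 relations), and r was 0.959 without the 2 farthest pups. The list holds Ntng1, Rgs16, Synpo2 and Shox2, named above among the genes most like the members. Given how the list was chosen, this correlation is a description and not independent evidence.

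Of 10 other habenula genes, 2 were past the rule for F1 PNO over F1 SAL, where 0.84% of all genes were. Values were higher for 7 of the 10 and lower for 3, Tac3 among the lower (log2 difference -0.24, SE 0.174), and the list median was 0.84. The 2 past the rule were Chrna3, which encodes the alpha3 nicotinic subunit that pairs with beta4 (log2 difference 1.71, SE 0.509), and Gpr151, an orphan receptor gene of habenula neurons (1.30, SE 0.442). Gpr151, Chrna3 and Irx2 (3 of 10) were lower by the rule in F1 IUO than in F1 PNO, at log2 differences of -2.63 (SE 0.485), -1.16 (SE 0.402) and -1.50 (SE 0.544). Gpr151 was also lower in F1 IUO than in F1 SAL (-1.32, SE 0.492). In F2 PNO against F1 PNO, 3 of 9 tested were lower, Gpr151 (-1.86, SE 0.454), Chrna3 (-1.17, SE 0.431) and Chrnb3 (-1.13, SE 0.499). In the 5 remaining comparisons 0 habenula genes passed (limma, 0 to 1 unadjusted). Adjusted p values for these habenula genes were 0.0852 or more. The list summed to 32.9 to 72.5 FPKM, most of it Tac3 (21.8 to 59.4 FPKM), a neuropeptide gene also expressed in striatum, and 2 of the 10 stayed under 1 FPKM everywhere. Chrnb4 tracked the mean of the list with r = 0.693 (permutation p = 0.00354, adjusted 0.0195) and rho = 0.594 (permutation p = 0.0115, adjusted 0.0573), but r was 0.463 without the 2 farthest pups, so part of it rests on those. Tcf7l2 had r = 0.533 with the list (permutation p = 0.0216, adjusted 0.0791) and rho = 0.544 (permutation p = 0.0169, adjusted 0.0621), and 0.58 without the 2 farthest. With the other thalamus genes Chrnb4 had r = 0.577 (permutation p = 0.0104, adjusted 0.0427) and rho = 0.547 (permutation p = 0.0153, adjusted 0.0621), and 0.41 without the 2 farthest. Whether its 2 correlations differ was not tested.

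Slc6a4 marks serotonin neurons of the raphe as well as young thalamus neurons, so genes of both were read. The 6 serotonin neuron genes summed to 5.55 to 10.74 FPKM, with 2.59 to 5.57 FPKM of Slc18a2, the vesicular monoamine transporter gene, and 0 of the 4 tested passed the rule in F1 PNO against F1 SAL (limma, 0 unadjusted). Slc6a4 and that list had r = 0.419 (permutation p = 0.0615, adjusted 0.156) and rho = 0.436 (permutation p = 0.0552, adjusted 0.182), and 0.556 without the 2 farthest pups. With the other thalamus genes Slc6a4 had r = 0.719 (permutation p = 0.00026, adjusted 0.00251) and rho = 0.678 (permutation p = 0.00075, adjusted 0.00495), and 0.700 without the 2 farthest pups. With the habenula genes it had r = 0.763 (permutation p = 0.00038, adjusted 0.00251) and rho = 0.828 (permutation p = 6e-05, adjusted 0.00099), and 0.738 without them. The differences between these correlations were not tested.

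Tcf7l2 and Lef1 encode factors that switch on Wnt target genes with beta-catenin, so partners and targets of these factors were read as well. Of 12 such genes, 10 were found and Znrf3 and Dkk1 were not. In F1 PNO against F1 SAL, 0 of 10 passed the rule (limma, 0 unadjusted), with a median log2 difference of 0.06. The most abundant, Ctnnb1, the beta-catenin gene, lay between 36.9 and 166 FPKM, and 0 of 10 passed the rule in each of the other 8 comparisons (limma, 0 to 2 unadjusted). Tcf7l2 and this list had r = 0.274 (permutation p = 0.273, adjusted 0.46) and rho = 0.297 (permutation p = 0.23, adjusted 0.421), and r was 0.517 without the 2 farthest pups.

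Promoters were searched because several members move together over the pups. The letters were CTTTGAT, the core that TCF/LEF proteins bind, on both strands, in 300 bases from 250 before to 50 after each gene start in RefSeq (GRCr8). Of the 9 members, 7 had an entry, with none for Lhx9 and Slc6a4. Slc17a6 alone of the 7 held the letters, 25 bases before its start on the strand of the gene, as did 1216 of 33469 promoters (3.63%). The Slc17a6 promoter at chr1:110348197-110348496 on the + strand is shown since its gene tracks Tcf7l2 most closely, with the match in capitals.
Slc17a6: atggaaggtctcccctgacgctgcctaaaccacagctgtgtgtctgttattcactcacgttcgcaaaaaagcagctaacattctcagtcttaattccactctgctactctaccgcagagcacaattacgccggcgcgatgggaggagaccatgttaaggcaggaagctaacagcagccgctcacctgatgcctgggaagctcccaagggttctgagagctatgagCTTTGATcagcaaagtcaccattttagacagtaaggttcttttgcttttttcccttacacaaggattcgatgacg
A match of these letters is a description and not a measured binding site.

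Genes of the labelled tissue and of its other neighbours were measured beside the markers, and their part in the marker differences was not tested. All 12 striatum genes had lower values in PNO than in SAL pups of F1. Their median log2 difference was -0.49, and 0 passed the rule (limma, 2 under 0.05 unadjusted). In F1 IUO against F1 PNO, 11 of 12 were higher, with a median of 0.63, and 0 passed (limma, 8 under 0.05 unadjusted). Ppp1r1b did not overlap there, at a log2 difference of 0.65 (SE 0.166). The striatum genes summed to 818.6, 581.8, 688.3 and 809.8 FPKM in the F1 PNO pups. For F1 SAL pups the sums were 545, 1175, 1442 and 1045 FPKM, where the lowest sum was in replicate 1, the pup highest in all 9 markers. Over the pups Tcf7l2 ran opposite to the striatum list, with r = -0.657 and rho = -0.63, each at a permutation p of 0.00034 (adjusted 0.00251 and 0.00338), and r = -0.674 without the 2 farthest pups. Slc6a4 had r = -0.592 with it (permutation p = 0.00946, adjusted 0.0427) and rho = -0.578 (permutation p = 0.0122, adjusted 0.0573), and -0.580 without the 2 farthest. Chrnb4 had r = -0.212 with the striatum list (permutation p = 0.352, adjusted 0.504) and rho = -0.152 (permutation p = 0.506, adjusted 0.667), and r was 0.131 without the 2 farthest.

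Of the hypothalamus genes, 3 of 9 tested (Otp, Oxt and Avp) passed the rule as lower in PNO than in SAL pups of F1, and 6 were higher in IUO than in PNO pups. The shares of all genes past the rule in these directions are not given. Avp was 1 of the 6. Avp, the vasopressin gene, had an adjusted p of 0.0468 (limma) in F1 IUO against F1 PNO, with a log2 difference of 3.80 (SE 0.541). The most abundant gene of that list in any library was Pomc, at 818 FPKM in F2 PNO replicate 4 alone and 1.09 to 5.38 FPKM in the others, where Avp reached 199 FPKM and Oxt, the oxytocin gene, 135. Tcf7l2 had r = 0.303 with the list (permutation p = 0.244, adjusted 0.46) and rho = 0.217 (permutation p = 0.4, adjusted 0.629), and 0.257 without the 2 farthest pups. All 8 cortical excitatory neuron genes had higher values in PNO than in SAL pups of F1 (median log2 difference 1.17), but 0 passed the rule (limma, 0 unadjusted), and Slc17a7 ran from 3.94 to 277 FPKM. The 8 choroid plexus genes had a median log2 difference of 0.21 with 0 past the rule (limma, 0 unadjusted), while Ttr ran from 1.75 to 12103 FPKM over the libraries.

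Blood genes (3 entries tested, 2 of them of Hba-a2, and Hbb-b1 not found) had a median log2 difference of 1.57 in F1 PNO against F1 SAL. The median was -0.19 for the 8 oligodendrocyte lineage genes and -0.13 for the 4 endothelium genes tested (Pecam1 not found). Of these 3 lists, 0 genes passed the rule there and limma placed 0 under 0.05 unadjusted. Their most abundant genes were Hba-a2 (9.18 to 278 FPKM), Mbp (405 to 1738 FPKM) and Slc2a1 (23.1 to 48.3 FPKM). Chrnb4 ran opposite to the blood genes over the pups, with r = -0.682 (permutation p = 0.00014, adjusted 0.00231) and rho = -0.697 (permutation p = 0.00041, adjusted 0.00338), and r = -0.682 without the 2 farthest pups. Tcf7l2 and the blood genes had r = -0.393 (permutation p = 0.0588, adjusted 0.156) and rho = -0.377 (permutation p = 0.0943, adjusted 0.239), and -0.454 without the 2 farthest. With the oligodendrocyte lineage genes Tcf7l2 had r = 0.489 (permutation p = 0.0381, adjusted 0.126) and rho = 0.432 (permutation p = 0.0632, adjusted 0.19), and 0.258 without the 2 farthest. In F1 IUO against F1 SAL, 4 of 9 hypothalamus genes, 1 of 8 cortical excitatory neuron genes and 2 of 3 blood entries were higher by the rule. In that comparison 1.61% of all genes passed it in either direction. By the same rule 1 hypothalamus gene and 2 blood entries, both of Hba-a2, were higher in F2 PNO than in F2 SAL. There 2.15% of all genes passed in either direction. In F2 IUO against F2 PNO, 2 hypothalamus genes were higher by it, where 1.8% of all genes passed in either direction. In the saline line 0 genes of these lists passed it (limma, 0 to 1 unadjusted).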

How the data were processed

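NAc RNA-Seq of 24 rat pups was read from the 24 deposited tables. The authors deposited FPKM per gene, made with HISAT2, StringTie, edgeR and SAMtools as named in the labels, whose versions and genome build are not given. Transcriptomes were merged over samples before FPKM were estimated. Depth is unknown, and values were not rescaled between libraries.

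Each of 9 comparisons used limma 3.58.1 in R 4.3.3 (lmFit, eBayes with trend, two-sided) on log2(FPKM + 0.1) of 4 against 4 libraries, for genes with at least 0.1 FPKM in 4 or more of the 8. Adjusted p values are Benjamini-Hochberg over all genes tested. Single members also had an exact permutation test. An F test used 24 libraries and interactions used 16. Correlations used 100000 permutations within groups. Tables used Python 3.11.15, pandas 2.3.3, numpy 2.4.6 and scipy 1.17.1, and plots matplotlib 3.10.9.

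The members and the 11 gene lists were chosen with earlier results of these data known. For each comparison the text counts the members past the rule and names those that passed it. It also names thalamus and habenula list genes that passed the rule, some genes of the other lists and the most abundant of each. The 3 genes most like each member and the 10 most like their mean (0.1 FPKM in 12 or more libraries) are named as well. Ratios to Tcf7l2 were looked at after seeing the data.

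Alternatives were a pseudocount of 1, no filter, a filter of 1 FPKM, upper-quartile rescaling, 1 fit of 24 libraries, a replicate block, a covariate of Y-linked genes, a 1.5-fold rule, uncentred correlations and leaving out each library. Added after seeing the data were the Tcf7l2 covariate, the split at the gap in Tcf7l2 and the 33 correlations with lists.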

Additional observations from a re-analysis of the deposited data

Results flagged for a closer look

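Each group of 4 pups was checked for a pup far from the other 3, as the gap to its nearest neighbour over the range of the group, on the log2(FPKM + 0.1) scale, for the 9 markers in 6 groups. Of 54 such groups, 2 had a share above Dixon's critical value, and chance gives about 2.7. Gbx2 in F1 IUO replicate 4 was far above the other pups of its group, at 5.75 FPKM with a gap of 0.905 of the log2 range (0.96 on the FPKM scale). Lef1 in F2 IUO replicate 4 was far below its group, at 2.79 FPKM with a gap of 0.839 of the log2 range, but 0.77 on the FPKM scale, which is under that critical value.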

How the results depend on the processing

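No member had an adjusted p under 0.05 in any comparison under any setting (limma). The number of members past the rule in F1 PNO against F1 SAL, 8, was 0 of 8 with Tcf7l2 as a covariate, 6 with all 24 libraries in one fit and 6 with Y-linked genes as a covariate, and lay between 4 and 8 when each library was left out. In F1 IUO against F1 PNO, 7 was 4 with all 24 libraries in one fit and 1 of 8 with Tcf7l2 as a covariate, and 5 to 8 with a library left out. There it was 8 with upper-quartile rescaling and with the 1.5-fold rule, and 6 of 8 with a filter of 1 FPKM. In F2 PNO against F2 SAL, 0 was 1 with Tcf7l2 as a covariate, and 0 to 1 with a library left out. In F2 IUO against F2 SAL, 1 was 0 with a pseudocount of 1, with no filter and with a filter of 1 FPKM, and 0 to 1 with a library left out. In F2 IUO against F2 PNO, 0 was 0 to 1 with a library left out. In F2 SAL against F1 SAL, 0 was 1 with Y-linked genes as a covariate. In F2 PNO against F1 PNO, 3 was 2 with all 24 libraries in one fit, 4 with Y-linked genes as a covariate and with the 1.5-fold rule, and 3 to 6 with a library left out. The 33 pairs under 0.05 were 0 among the 8 libraries below the gap in Tcf7l2, where fewer samples and a narrower range are built in. With Tcf7l2 as a covariate 20 of 70 log2 differences of members changed sign. Among them were Gbx2 (-0.0498), Prkcd (-0.20) and Slc17a6 (-0.0822) in F1 PNO against F1 SAL, and Lhx9 (0.14), Prkcd (0.78) and Ptger3 (0.29) in F1 IUO against F1 PNO. The Tcf7l2 covariate removes what other genes share with Tcf7l2, by its construction. The cause of the other moves was not tested.

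Replicate numbers do not pair pups: after group means were removed, same-numbered libraries correlated at r from -0.331 to 0.199 over genes, and genes are not independent replicates. With the replicate block the counts past the rule were 8 in F1 PNO against F1 SAL, 7 in F1 IUO against F1 PNO and 3 in F2 PNO against F1 PNO, as without it.

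Each group had 4 pups, and the within-group SD of Tcf7l2 was 1.39 on the log2 scale. Depth is unknown, so levels near 0.1 FPKM, as for Slc6a4, carry an unknown counting error.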
